A study of Mus musculus with 12 samples.

Results

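The cytochrome P450 enzymes on the array were followed through sorted mouse kidney tubules. Members were the genes whose name in the scanner output begins with Cyp followed by a family number, a subfamily letter and a gene number. The rule found 71 genes, measured by 103 of the 41174 probes that are not controls. Of these, 63 probes of 47 genes passed the filter, a signal well above background on 4 or more arrays of 12, and entered the tests with 17072 genes in all. A particle sorter (COPAS) divided a tubule suspension from each of 4 animals (mice 1 and 3 were females, mice 2 and 4 males) into fluorescent tubules that the submitters call distal convoluted tubules (EGFP+), tubules without fluorescence (EGFP-) and the total suspension passed through the same sorter (ALL). Each fraction of each mouse was hybridised to 1 one-colour array, which gave 4 arrays a fraction. The labels used here state no strain, age or treatment and do not name the promoter that drives EGFP.

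P450 enzymes are haem proteins that insert one atom of molecular oxygen into a substrate, drawing electrons from cytochrome P450 reductase in the endoplasmic reticulum or from ferredoxin in mitochondria. Some make or break down signals such as active vitamin D, retinoic acid, bile acids, steroids and the epoxide and hydroxyl products of arachidonic acid, and others clear drugs and toxins. In the mouse kidney most of the abundant forms are known from the proximal tubule, and several are known to differ between males and females.

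Probe sequences are shown first because the readings of 2 genes turned on which probe was read. The 60-base probes of Cyp2j13 and Cyp2j11 below lie in genes of one cluster and share a stretch of 30 bases, of which 28 match. Capitals mark the bases that differ within that stretch. The second Cyp2j13 probe shown shares no comparable stretch (25 bases or more, with few mismatches) with a probe of another family 2 member, and the Cyp4a12a probe is the brighter of the pair for that gene; these have no capitals.
Cyp2j13, probe A_51_P476481: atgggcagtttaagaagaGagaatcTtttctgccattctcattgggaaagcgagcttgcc
Cyp2j11, probe A_51_P423085: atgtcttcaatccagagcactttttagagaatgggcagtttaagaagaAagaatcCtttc
Cyp2j13, probe A_51_P312909: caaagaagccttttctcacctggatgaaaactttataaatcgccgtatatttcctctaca
Cyp4a12a, probe A_51_P433360: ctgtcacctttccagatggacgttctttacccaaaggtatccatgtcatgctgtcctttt
In mm8, the build of the scanner files, these lie on the minus strand at chr4:95537632-95548615 (a span of 10984 bases for a probe of 60), chr4:95789644-95789703 and chr4:95563586-95563645, and on the plus strand at chr4:114825736-114826668 (a span of 933 bases). A further Cyp2j13 probe, A_52_P347956, lies at chr4:95537311-95537370, and a further Cyp4a12a probe, A_52_P44914, at chr4:114830670-114830729. Among probes of different members of one family, the only other pair with such a stretch was a Cyp2a5 and a Cyp2a4 probe, which matched at 35 of 38 bases. The current name Cyp4a12a replaces Cyp4a12 of the files, an older symbol that RefSeq lists for Cyp4a12a and Cyp4a12b, so these copies cannot be told apart by name.

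The signals were read as log2 of the processed signal minus the array's 75th percentile of that signal, called the level here; a level of 0 equals that percentile and 1 unit is a factor of 2. The share of probes well above background ran from 53.9% to 65.6% over the arrays. The 7 distal convoluted tubule markers rose in EGFP+ against EGFP- (7 of 7), with a summed linear level of 462 to 587 in EGFP+, 85.3 to 117 in ALL and 22.5 to 38.9 in EGFP-. All 20 proximal tubule markers fell. Outlier-marked spots removed 17 of their values in ALL and EGFP-; over the 8 markers with a value on all 12 arrays, the summed level was 3.79 to 8.43 in EGFP+, 139 to 170 in ALL and 165 to 195 in EGFP-. Of 8 proximal straight segment markers, 6 fell and 2 were not past the threshold. All 6 thick ascending limb markers also rose (median difference 1.72), 5 of 10 connecting tubule and principal cell markers rose and 5 fell, 4 of 8 intercalated cell markers fell and the rest of that list was not past the threshold. The 8 podocyte markers fell, with a summed level of 1.90 to 3.12 in EGFP+ and 62.6 to 113 in EGFP-. So did 9 of 10 endothelium markers (6.09 to 8.40 against 60.6 to 99.8), 6 of 9 of smooth muscle and stroma (3.72 to 5.78 against 14.4 to 25.6), 5 of 9 tested of leukocytes (0.876 to 1.42 against 6.18 to 14.7) and 5 of 5 tested of hepatocytes (0.336 to 0.406 against 2.14 to 6.18), and no marker of these lists rose. Xist was well above background on 6 of 6 female and 0 of 6 male arrays, and Ddx3y, Eif2s3y and Kdm5d on 0 of 6 female and 6 of 6 male arrays.

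Most P450 genes that were measured were lower in the EGFP+ tubules than in the EGFP- tubules. Of the 47 tested, 26 fell (55.3%) and 9 rose (19.1%), with 12 not past an adjusted p of 0.05 in limma; over all 17072 genes 58.2% passed, 25.9% lower and 32.3% higher. The median difference of the 47 was -2.11 on the log2 scale, where that of all genes tested was 0.11. With members whose probe cleared background on no EGFP+ array set to their bound, defined with the vitamin D genes, this median was -2.11 too. It could not move, because the lower members so set stayed below it at their bound. The median member was Cyp26a1, which was well above background on 1 EGFP+ array. Of the 26, Cyp1b1, Cyp2c40, Cyp2f2, Cyp2r1 and Cyp4f14 passed the filter only through ALL and EGFP- arrays on the probe used. Among genes well above background on 1 or more EGFP+ arrays, 13 of the members tested (27.7% of the 47) were lower by 16-fold or more, as were 583 of all genes (3.41% of 17072). The 26 that fell did so in each of the 4 mice, and their EGFP+ and EGFP- arrays overlapped only for Cyp4b1 and Cyp26b1. The like share over all called genes was not counted, so this is not read as a trait of P450 genes. The arrays were on 3 slides. Within them the median difference of the 47 was -1.92, -2.33 and -1.88 (-1.92, -1.98 and -1.88 with such members at their bound), and the sign of the difference was alike on every slide for each of the 35 genes past 0.05. On slide 2 this set EGFP+ of mouse 3, a female, against EGFP- of mouse 2, a male. The slide differences thus mix mouse and sex with fraction, and the like count over all called genes was not made. In sorted tubules, fewer cells of a type and less RNA per cell cannot be told apart.

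The size of the fall is given here by mouse. The 26 lower members had median differences of -5.28, -4.25, -5.28 and -4.60 in mice 1 to 4, and the 20 proximal tubule markers -5.26, -4.25, -5.34 and -4.76. The 26 were picked by their fall in this same comparison and all 20 markers fell, so a like size is partly set by that choice. The median of all 47 tested members was -2.11. With members that were not well above background in EGFP+ at their bound, the medians of the 26 became -4.38, -3.88, -4.37 and -4.11. In both lists, mouse 2 showed the smallest difference. It did so too for the proximal straight segment (-4.10), endothelium (-2.82), smooth muscle and stroma (-2.27) and hepatocyte (-3.90) lists. The podocyte list was least reduced in mouse 1 (-5.96) and the leukocyte list in mouse 4 (-1.61). The podocyte, endothelium, smooth muscle and stroma, leukocyte and hepatocyte lists were lower in EGFP+ too. The part of RNA from any of these cells in the P450 differences was not tested.

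**Figure D1:**
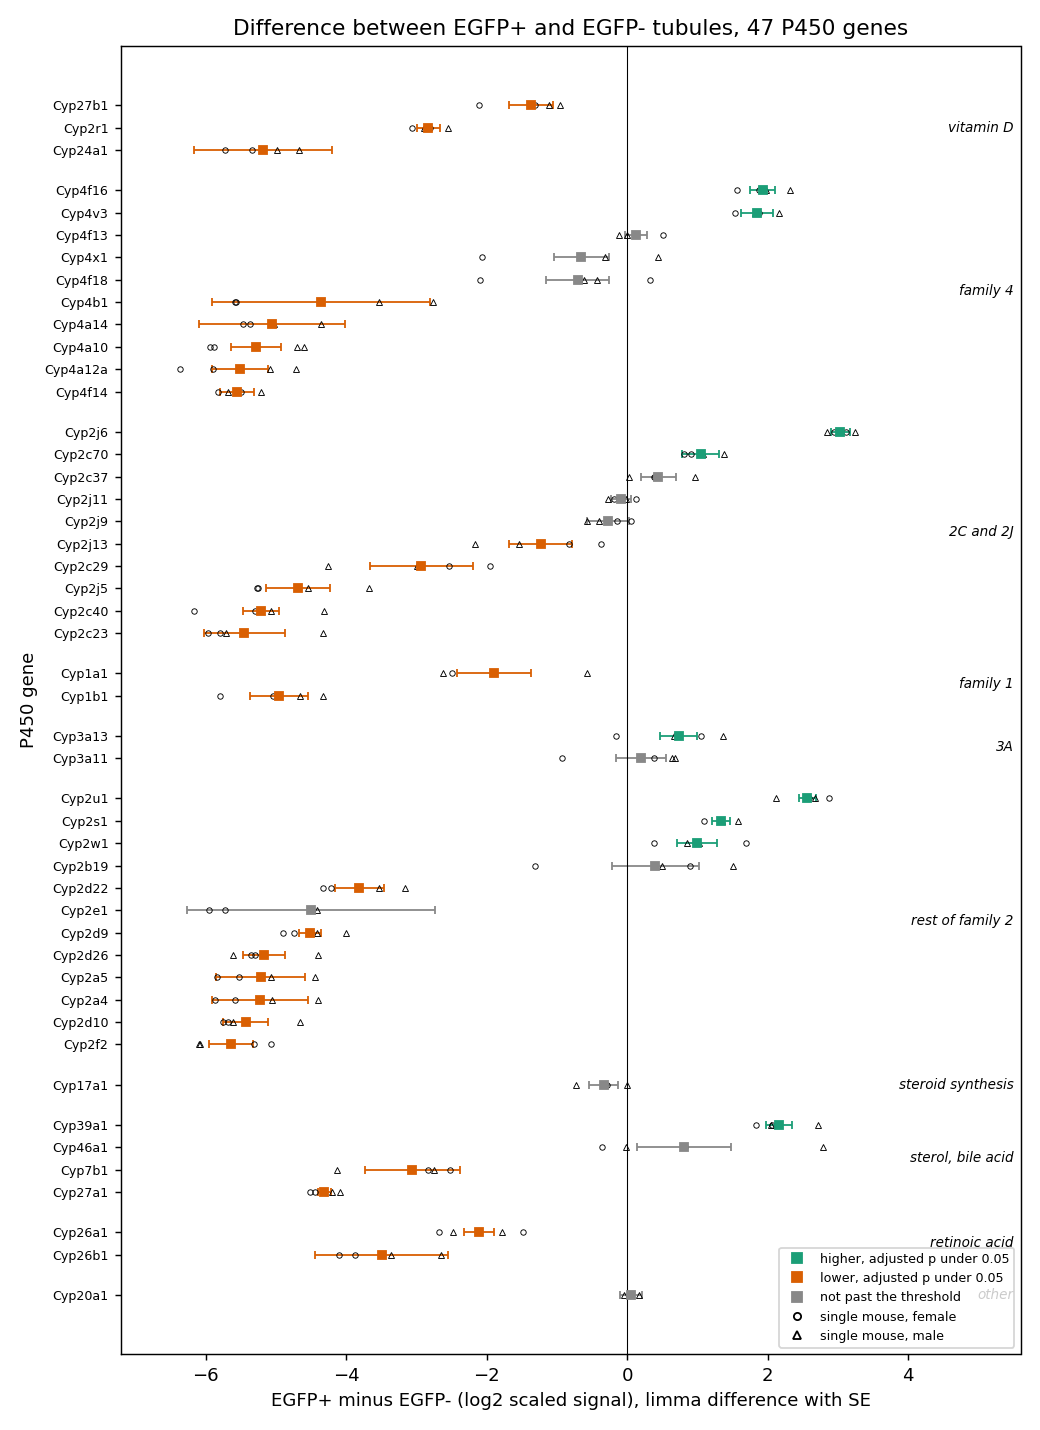
EGFP+ minus EGFP- in log2 level for the 47 tested P450 genes, grouped by role; squares are limma differences with their SE, coloured by call, and open symbols are single mice (circles female, triangles male). The genes past the threshold form a set of 26 on the left and a set of 9 on the right that reaches 3.04; 6 genes whose probe cleared background on no EGFP+ array are drawn at their signals there, which give only a bound.

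The 9 genes that rose come from several subfamilies. Cyp2j6, of the arachidonic acid epoxygenase subfamily 2J, had the largest difference. Its level was at 3.43, 3.71, 3.60 and 3.61 in EGFP+, at 1.30, 1.46, 1.30 and 0.97 in ALL and at 0.49, 0.87, 0.47 and 0.37 in EGFP-, for mice 1 to 4 in this order as throughout. The 3 fractions were fully separate, with ALL between the others, and the difference between EGFP+ and EGFP- was 3.04 ± 0.14 (SE, n = 4), adjusted p = 7.91e-09, which is 8.21-fold. Cyp2u1, a hydroxylase of long-chain fatty acids, stood at -0.89, -1.15, -0.72 and -0.86 in EGFP+, at -2.91, -2.70, -2.85 and -3.06 in ALL and at -3.47, -3.27, -3.60 and -3.54 in EGFP-. Here too the fractions were separate and ALL lay between, with a difference of 2.57 ± 0.13 (SE, n = 4), adjusted p = 1.23e-08. Cyp39a1, an oxysterol hydroxylase of bile acid synthesis, stood at 1.47, 1.45, 1.59 and 1.54 in EGFP+, at -0.17, -0.25, -0.14 and -0.80 in ALL and at -0.36, -0.60, -0.47 and -1.17 in EGFP-. Every EGFP+ array was above every other array, and the difference was 2.16 ± 0.19 (SE, n = 4), adjusted p = 1.38e-06. Its second probe gave 2.23.

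A pair of family 4 genes rose by a similar amount. Cyp4f16, of the 4F subfamily of fatty acid and eicosanoid hydroxylases, stood at 0.39, 0.23, 0.49 and 0.56 in EGFP+, at -0.81, -1.38, -1.07 and -1.46 in ALL and at -1.17, -1.74, -1.38 and -1.75 in EGFP-. Cyp4v3, a fatty acid hydroxylase, stood at -0.40, -0.35, -0.29 and -0.71 in EGFP+, at -1.87, -1.72, -1.81 and -2.60 in ALL and at -1.94, -2.16, -2.16 and -2.88 in EGFP-. In both the EGFP+ arrays were above all others, with differences of 1.93 ± 0.18 (SE, n = 4), adjusted p = 1.94e-06 for Cyp4f16 and 1.85 ± 0.23 (SE, n = 4), adjusted p = 2.78e-05 for Cyp4v3. Cyp2s1, which is known to be induced through the aryl hydrocarbon receptor, stood at 2.95, 2.91, 2.99 and 2.93 in EGFP+, at 1.98, 1.63, 1.84 and 1.57 in ALL and at 1.86, 1.55, 1.65 and 1.35 in EGFP-. The EGFP+ arrays agreed within 0.04 (SD) and lay above all others, for a difference of 1.34 ± 0.13 (SE, n = 4), adjusted p = 2.97e-06. A further Cyp2s1 probe was well above background on no array.

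The other 3 rose less and were dim. Cyp2c70, known for making muricholic acids in mouse liver, stood at -2.06, -2.31, -2.11 and -2.68 in EGFP+, at -2.74, -3.51, -3.00 and -3.42 in ALL and at -2.97, -3.39, -2.93 and -4.07 in EGFP-. EGFP+ and EGFP- did not overlap, and the difference was 1.05 ± 0.27 (SE, n = 4), adjusted p = 0.00502. Cyp2w1, an enzyme known from fetal gut and tumours, was well above background on 3 of 4 EGFP+, 2 of 4 ALL and 1 of 4 EGFP- arrays. Its levels were at -4.56, -4.74, -4.06 and -4.73 in EGFP+, at -4.99, -6.02, -5.14 and -6.06 in ALL and at -4.95, -5.76, -5.76 and -5.59 in EGFP-. The difference was 0.99 ± 0.29 (SE, n = 4), adjusted p = 0.0106, and leaving out mouse 3 ended the call (0.75, adjusted p = 0.0789), as did normexp, another background correction (1.19, adjusted p = 0.0689). Cyp3a13, of the drug-clearing subfamily 3A, stood at -4.11, -2.91, -2.99 and -3.85 in EGFP+, at -3.83, -3.92, -3.88 and -4.38 in ALL and at -3.95, -4.28, -4.05 and -4.51 in EGFP-. Mouse 1 went the other way and the groups overlapped; the difference of 0.73 ± 0.27 (SE, n = 4), adjusted p = 0.0333 lost its call when mouse 2 (0.52, adjusted p = 0.197), mouse 3 (0.62, adjusted p = 0.137) or mouse 4 (0.76, adjusted p = 0.0545) was left out, and with slide as a block (0.65, adjusted p = 0.0591).

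**Figure D2:**
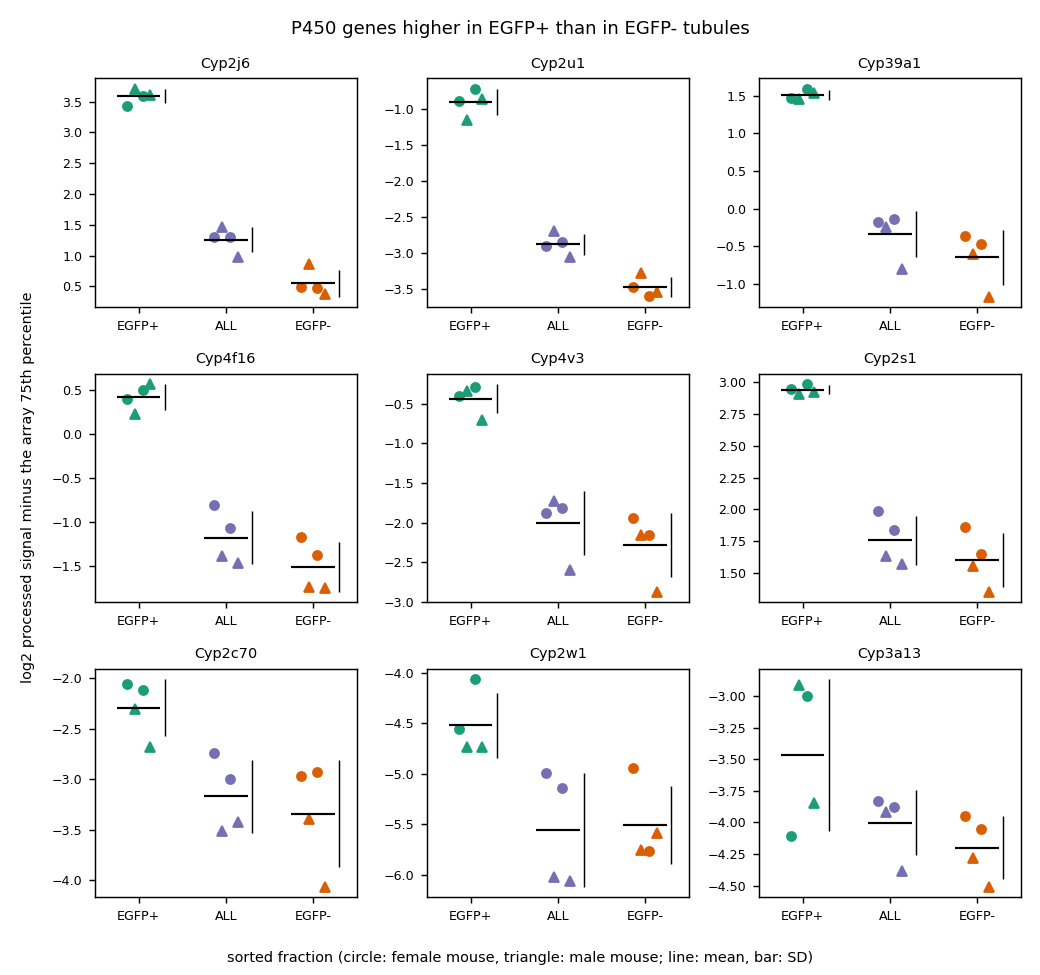
Level on each array (log2 processed signal minus the array's 75th percentile) of the 9 P450 genes higher in EGFP+ than EGFP-, with 4 mice a fraction, circles for females, triangles for males, the mean as a line and the SD as a bar. EGFP+ lies apart from both other fractions for Cyp2j6, Cyp2u1, Cyp39a1, Cyp4f16, Cyp4v3 and Cyp2s1, and overlaps them for Cyp3a13.

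The 3 genes of vitamin D metabolism all fell. Cyp24a1, which breaks active vitamin D down, stood at -4.55, -0.46, -3.26 and -2.10 in EGFP+, at 0.68, 4.36, 2.23 and 2.83 in ALL and at 0.79, 4.21, 2.47 and 2.89 in EGFP-. Levels within a fraction spread over more than 3 log2 units with mouse 1 lowest and mouse 2 highest in each, but no EGFP+ array reached an EGFP- array, and the difference was -5.18 ± 0.99 (SE, n = 4), adjusted p = 0.000766 (36.3-fold lower). Cyp27b1, the enzyme that makes active vitamin D, stood at -4.15, -3.79, -5.47 and -4.21 in EGFP+, at -2.88, -3.04, -3.27 and -3.63 in ALL and at -2.84, -2.83, -3.37 and -3.10 in EGFP-. It fell by 1.37 ± 0.32 (SE, n = 4), adjusted p = 0.00282, and its second probe gave -2.15; with normexp the difference was 0.10 (adjusted p = 0.844), the opposite sign. Cyp2r1, which carries out the first hydroxylation of vitamin D, reached a signal well above background on all 8 arrays of ALL and EGFP- and on none of EGFP+. It stood at -5.66, -5.76, -5.74 and -5.54 in EGFP+, at -2.89, -3.22, -3.19 and -2.62 in ALL and at -2.60, -3.20, -2.93 and -2.65 in EGFP-. On the processed signal it was at least 5.31-fold lower in EGFP+ than in EGFP- (adjusted p = 5.03e-08 on the signals as read). With normexp its difference was -0.58 (adjusted p = 0.221).

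Here and for other genes, a bound stated as at least N-fold sets the mean of the brighter fraction against the lowest signal well above background on each array of the dimmer fraction, or the probe's own signal there where that was higher. Such a bound holds for the processed signal only, and other processing gave smaller falls where stated. An adjusted p beside a bound is from the fit on the signals as read, not well above background in the dimmer fraction. It does not test the bound. The genes around these enzymes split evenly: of 15 in the vitamin D list, 7 rose and 8 fell. The receptor Vdr rose by 1.22 (adjusted p = 0.00125), and so did the calcium-handling genes Calb1 by 3.20 (adjusted p = 3.26e-08), S100g by 1.83 (adjusted p = 3.18e-06), Trpv5 by 2.99 (adjusted p = 1.82e-06) and Trpv6 by 4.07 (adjusted p = 7.91e-09). The receptors that take up filtered vitamin D binding protein fell, with Lrp2 at -4.59 (adjusted p = 1.21e-06) and Cubn at -4.92 (adjusted p = 8.19e-09), as did the binding protein gene Gc, at -5.01 (adjusted p = 0.000486). Lrp2, Cubn and Slc34a1 are also on the proximal tubule list.

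Family 4 hydroxylates fatty acids, and its subfamily 4A makes the omega-hydroxyl products of arachidonic acid. Of its 11 genes 10 were tested: 5 fell, Cyp4f16 and Cyp4v3 rose and 3 were not past the threshold. Cyp4a12a had the largest fall among members measured in both fractions. It stood at -3.93, -2.80, -4.42 and -3.82 in EGFP+, at 1.65, 2.03, 1.86 and 0.81 in ALL and at 1.96, 2.28, 1.95 and 0.89 in EGFP-, a difference of -5.51 ± 0.39 (SE, n = 4), adjusted p = 2.27e-07 and 45.6-fold. Every EGFP+ array was below every other array by more than 3 log2 units on this probe. The second Cyp4a12a probe, on which the sexes lay far apart, gave -3.11 (adjusted p = 0.134). On it EGFP+ was lower than EGFP- in each mouse, but the fit does not pair the arrays of a mouse, so the sex difference adds to its spread. Cyp4a10, induced in rodents by fibrates, stood at -2.31, -1.26, -2.18 and -2.26 in EGFP+, at 3.25, 3.16, 3.70 and 2.33 in ALL and at 3.57, 3.34, 3.77 and 2.45 in EGFP-. EGFP+ was again apart from both other fractions, by -5.28 ± 0.36 (SE, n = 4), adjusted p = 1.42e-07, with mouse 2 the highest EGFP+ array, and its other probes gave -4.77 and -3.85. Cyp4a14 stood at 1.10, 0.01, 1.07 and -2.03 in EGFP+, at 6.36, 4.22, 6.30 and 2.74 in ALL and at 6.56, 4.38, 6.44 and 2.99 in EGFP-. Its difference was -5.06 ± 1.04 (SE, n = 4), adjusted p = 0.00135, and both male mice were lower than both females in every fraction.

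Cyp4f14, a leukotriene hydroxylase of liver and kidney, was well above background on no EGFP+ array and on all 8 others. It stood at -7.34, -7.33, -6.90 and -7.01 in EGFP+, at -2.30, -1.66, -1.26 and -2.19 in ALL and at -1.84, -1.66, -1.07 and -1.81 in EGFP-. On the processed signal it was at least 12.6-fold lower in EGFP+ than in EGFP- (adjusted p = 6.48e-09 on the signals as read). Its smallest fall over the alternatives was a difference of -1.58. Cyp4b1, an enzyme known to activate protoxins and to be high in the male mouse kidney, stood at -1.04, 4.72, -0.97 and 4.57 in EGFP+, at 4.35, 7.34, 4.43 and 8.21 in ALL and at 4.53, 7.48, 4.59 and 8.10 in EGFP-. The 2 male EGFP+ arrays lay at the female EGFP- level, so that the fractions overlapped although all 4 mice moved the same way. The difference was -4.36 ± 1.55 (SE, n = 4), adjusted p = 0.0305. This fit does not pair the arrays of a mouse, so the sex difference adds to its spread. Slide as a block (-3.79, adjusted p = 0.0628) and leaving out mouse 1 (-3.95, adjusted p = 0.0829) or mouse 3 (-3.95, adjusted p = 0.0878) ended the call. It held in 11 of 14 alternatives, among them the mouse as a block. Cyp4f13 and Cyp4f18 had differences of 0.13 and -0.70, neither past the threshold. Cyp4x1 was well above background on 0 of 4 EGFP+, 2 of 4 ALL and 2 of 4 EGFP- arrays. It stood at -5.59, -6.01, -7.01 and -5.75 in EGFP+, at -4.87, -5.92, -5.42 and -5.70 in ALL and at -4.92, -6.45, -4.95 and -5.43 in EGFP-, with overlap between the fractions, was not past the threshold and gives no fold.

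The epoxygenase subfamilies 2C and 2J make epoxides of arachidonic acid. Of 16 genes 10 were tested, of which Cyp2j6 and Cyp2c70 rose, 5 fell and 3 were not past the threshold. Cyp2c23, which the files call Cyp2c44 and which is known as an epoxygenase of the kidney, stood at -2.89, -3.42, -2.90 and -4.19 in EGFP+, at 2.71, 0.78, 2.81 and 1.47 in ALL and at 3.07, 0.91, 2.90 and 1.52 in EGFP-. The lowest other array was more than 3 log2 units above the highest EGFP+ array, for a difference of -5.45 ± 0.58 (SE, n = 4), adjusted p = 6.62e-06 (43.7-fold). Cyp2j5, known as an abundant epoxygenase of the proximal tubule, stood at 0.82, 2.96, 1.04 and 2.40 in EGFP+, at 5.92, 6.28 and 6.94 (mice 1, 3 and 4) in ALL and at 6.07, 6.63, 6.30 and 6.94 in EGFP-. It was lower by 25.7-fold, a difference of -4.68 ± 0.46 (SE, n = 4), adjusted p = 6.41e-06, with no overlap. The ALL spot of mouse 2 was dropped as an outlier; kept, it read 6.09.

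Cyp2c40 was well above background on no EGFP+ array with its brighter probe and on 1 with the other. On the brighter probe it stood at -7.69, -6.70, -7.24 and -7.35 in EGFP+, at -1.59, -2.46, -1.79 and -2.13 in ALL and at -1.52, -2.39, -1.95 and -2.28 in EGFP-. On that probe's processed signal EGFP+ was at least 9.32-fold lower than EGFP- (adjusted p = 1.46e-08 on the signals as read). The gene's smallest fall over the alternatives was a difference of -1.36. The other probe gave a difference of -2.34. Cyp2c29 stood at -4.02, -6.14, -4.02 and -7.42 in EGFP+, at -1.68, -3.19, -2.29 and -3.10 in ALL and at -1.49, -3.15, -2.07 and -3.16 in EGFP-. Both females were higher than both males in EGFP+, and the difference between fractions, -2.93 ± 0.73 (SE, n = 4), adjusted p = 0.00463, became -0.64 (adjusted p = 0.178) with normexp. Cyp2c37, Cyp2j9 and Cyp2j11 had differences of 0.45, -0.27 and -0.09, none past the threshold.

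Cyp2j6 and Cyp2j5 thus moved in opposite directions although they lie in the same cluster on chromosome 4, with only Cyp2j9 between them in RefSeq. The 250 bases before the start that the RefSeq promoter table (GRCm38.p6) uses for each are shown for comparison, at chr4:96664120-96664369 and chr4:96553652-96553901, both on the minus strand. Capitals mark matches, on either strand, to TATAAA, to the receptor half-site motif AGGTCA or to the GC box core GGGCGG.
Cyp2j5: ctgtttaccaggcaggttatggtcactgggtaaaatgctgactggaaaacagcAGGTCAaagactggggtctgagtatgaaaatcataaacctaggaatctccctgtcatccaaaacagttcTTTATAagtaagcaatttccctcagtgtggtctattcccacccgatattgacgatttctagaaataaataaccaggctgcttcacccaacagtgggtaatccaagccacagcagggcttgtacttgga
Cyp2j6: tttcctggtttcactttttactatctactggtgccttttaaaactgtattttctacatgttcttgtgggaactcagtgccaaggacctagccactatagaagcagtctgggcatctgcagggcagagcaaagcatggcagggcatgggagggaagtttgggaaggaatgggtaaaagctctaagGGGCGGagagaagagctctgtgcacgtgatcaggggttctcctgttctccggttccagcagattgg
The Cyp2j5 stretch holds TATAAA, on the opposite strand and starting 128 bases before the start, and AGGTCA at 197 bases, while the Cyp2j6 stretch holds neither of these and has GGGCGG at 66 bases. No match shown overlaps another, but the letters of AGGTCA can overlap those of CAAAGTCCA, which was also searched. RefSeq gave promoters for 54 of the 71 members. TATAAA was found on either strand in 23 of the 54 (42.6%), against 14.3% of 27025 genes with a promoter; the members holding it included 9 of 19 that fell, 1 of 7 that rose (Cyp2c70) and 11 of 18 that were not tested. CAAAGTCCA was found in 7 of the 54 (13.0%) against 0.451% of all, in Cyp2c40, Cyp2c65, Cyp2c70, Cyp3a11, Cyp3a16, Cyp3a41a and Cyp8b1. GGGCGG was found in 27.8% of members against 35.4%, AGGTCA in 24.1% against 15.8%, GTTAAT in 11.1% against 7.49% and GCGTG in 20.4% against 30.9%. These are matches of letters in a window and were not tested as sites.

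Among the other members of family 2, which include many enzymes of drug and steroid oxidation, 12 of 18 genes were tested: Cyp2u1, Cyp2s1 and Cyp2w1 rose, 7 fell and 2 were not past the threshold. All 4 tested genes of subfamily 2D, Cyp2d9, Cyp2d10, Cyp2d22 and Cyp2d26, fell, by between 3.81 and 5.43. Cyp2d10 stood at -1.22, -0.97, -0.84 and -1.86 in EGFP+, at 4.26, 3.76, 4.78 and 3.95 in ALL and at 4.53, 3.68, 4.84 and 3.75 in EGFP-. Cyp2d26 stood at 1.36, 1.65, 1.78 and 0.66 in EGFP+, at 6.52, 7.03 and 6.28 (mice 1, 3 and 4) in ALL and at 6.72, 6.05, 7.08 and 6.26 in EGFP-. For both, EGFP+ was more than 4 log2 units under every other array, with differences of -5.43 ± 0.32 (SE, n = 4), adjusted p = 5.04e-08 and -5.17 ± 0.30 (SE, n = 4), adjusted p = 9.8e-08. The dropped ALL spot of Cyp2d26 in mouse 2 read 5.78. Cyp2d22 fell by 3.81 (adjusted p = 1.91e-06) on its brightest probe, but its other probes gave -1.22 (adjusted p = 0.00553) and -0.17 (adjusted p = 0.807). The 2D genes are close copies of each other, and the signal of one on another's probe was not tested.

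Cyp2a4 and Cyp2a5, close relatives that oxidise steroids and coumarin, fell together. Cyp2a4 stood at -1.84, 0.76, -1.78 and 0.40 in EGFP+, at 3.29, 4.99, 3.96 and 5.30 in ALL and at 3.73, 5.16, 4.09 and 5.46 in EGFP-. Cyp2a5 stood at -1.24, 1.03, -1.48 and 0.72 in EGFP+, at 3.93, 5.27, 4.24 and 5.65 in ALL and at 4.29, 5.47, 4.35 and 5.78 in EGFP-. In both genes EGFP+ was below every other array and males were above females in every fraction; the differences were -5.22 ± 0.68 (SE, n = 4), adjusted p = 3.89e-05 and -5.22 ± 0.63 (SE, n = 4), adjusted p = 2.04e-05. Cyp2f2, known from the airway for activating naphthalene, was well above background on none of the EGFP+ arrays and on all others. Its levels were at -7.45, -7.42, -6.95 and -7.12 in EGFP+, at -2.52, -1.37, -1.88 and -1.15 in ALL and at -2.14, -1.34, -1.89 and -1.03 in EGFP-. On the processed signal it was at least 12.6-fold lower in EGFP+ than in EGFP- (adjusted p = 2.97e-08 on the signals as read). Its smallest fall over the alternatives was a difference of -1.59.

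Cyp2e1, which oxidises ethanol, had a difference of -4.50 ± 1.77 (SE, 4 EGFP+ and 3 EGFP- arrays), adjusted p = 0.0523, not past the threshold. It stood at -2.95, 1.91, -3.65 and 1.99 in EGFP+, at 2.32, 2.10 and 6.45 (mice 1, 3 and 4) in ALL and at 2.77, 2.30 and 6.41 (mice 1, 3 and 4) in EGFP-; 2 spots of mouse 2 were dropped as outliers. Each male array was more than 3 log2 units above both females of its fraction, while EGFP+ was lower in all 3 mice that had both values. With the mouse as a block the difference was -5.36 (adjusted p = 2.59e-06), with the dropped spots kept it was -4.95 (adjusted p = 0.0171), and without mouse 2 it was -5.36 (adjusted p = 0.0386); it was past the threshold in 5 of 14 alternatives. Cyp2b19 had a difference of 0.40 (adjusted p = 0.604).

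**Figure D3:**
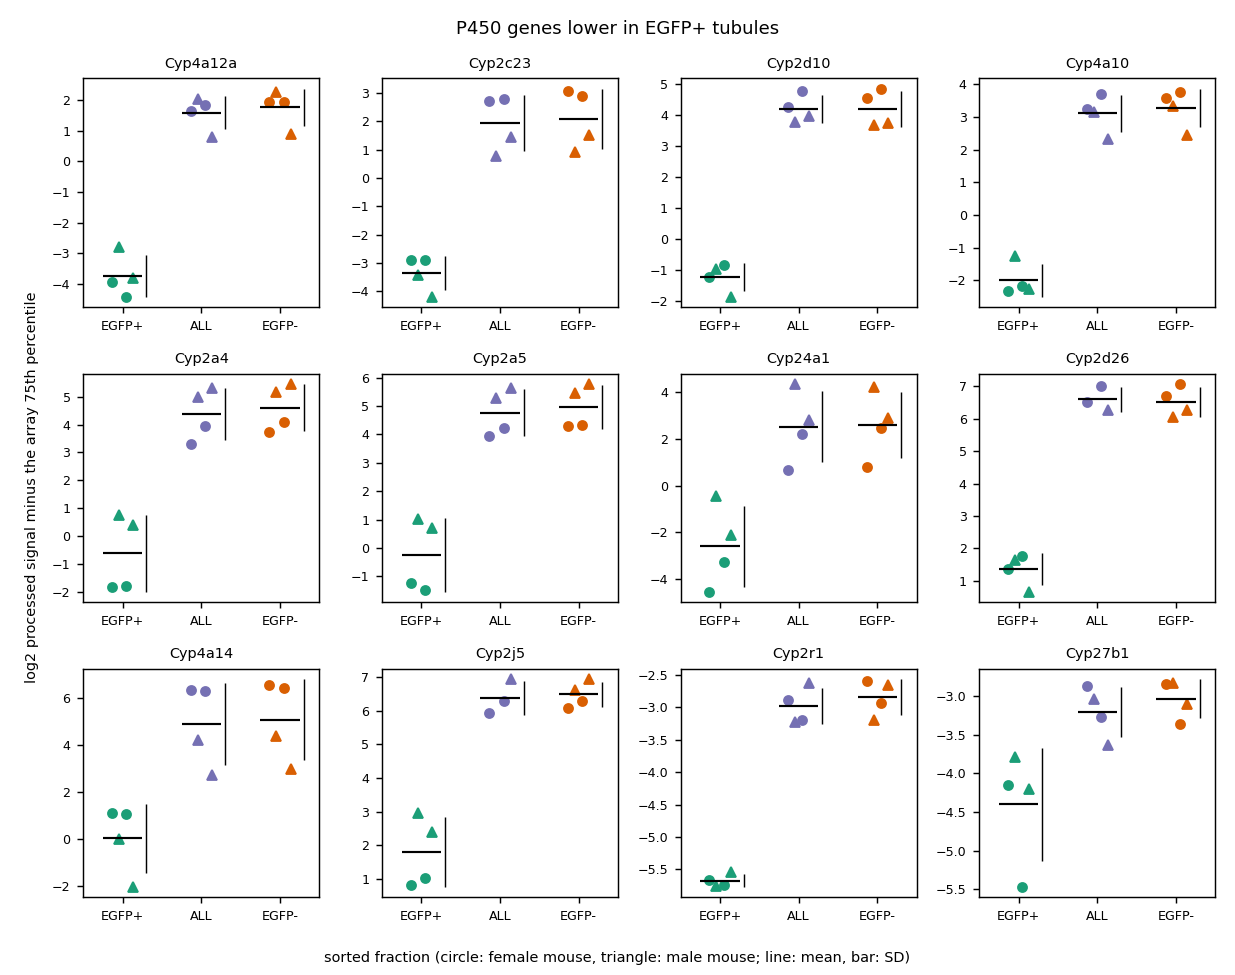
Level on each array of the 10 P450 genes with the largest falls among those well above background in both fractions, and of Cyp2r1 and Cyp27b1, drawn with circles for female and triangles for male mice, the mean as a line and the SD as a bar. ALL and EGFP- lie at like levels while EGFP+ is lower in every panel; spots dropped as outliers are not drawn.

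Family 1 oxidises aromatic hydrocarbons and is induced through the aryl hydrocarbon receptor. Both tested genes fell. Cyp1b1 was well above background on none of the EGFP+ arrays and on all others, standing at -6.36, -5.34, -6.81 and -6.98 in EGFP+, at -1.57, -1.29, -1.28 and -2.51 in ALL and at -1.32, -1.01, -1.02 and -2.33 in EGFP-. On the processed signal it was at least 14.1-fold lower in EGFP+ than in EGFP- (adjusted p = 9.43e-07 on the signals as read). Its smallest fall over the alternatives was a difference of -1.54. Cyp1a1 was dim, well above background on 1 EGFP+, 3 ALL and 4 EGFP- arrays, with a difference of -1.89 ± 0.53 (SE, n = 4), adjusted p = 0.00901; this became 0.35 (adjusted p = 0.534) with normexp and lost its call at -1.69 (adjusted p = 0.0701) once mouse 3 was left out. Of the drug-clearing subfamily 3A, 2 of 6 genes were tested, and Cyp3a11 showed 0.19 (adjusted p = 0.662) beside Cyp3a13.

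Sterol and bile acid enzymes went both ways. Cyp27a1, the mitochondrial sterol hydroxylase, stood at -4.43, -4.42, -4.51 and -4.35 in EGFP+, at -0.32, -0.28, -0.25 and -0.23 in ALL and at 0.01, -0.23, 0.00 and -0.27 in EGFP-. The spread within each fraction was at most 0.15 (SD), against a difference of -4.31 ± 0.10 (SE, n = 4), adjusted p = 6.54e-10 (19.8-fold lower). Cyp7b1, an oxysterol hydroxylase, stood at -4.17, -2.67, -3.83 and -2.91 in EGFP+, at -1.33, -0.09, -1.53 and 0.98 in ALL and at -1.33, 0.07, -1.31 and 1.21 in EGFP-, lower in EGFP+ by 8.32-fold (adjusted p = 0.00204) with no overlap between EGFP+ and EGFP-. Cyp39a1, which acts on oxysterols too, rose as described, and Cyp46a1 was at 0.81 (adjusted p = 0.32), where mouse 4 read -1.73 in EGFP+ and -2.08 in ALL and the other 10 arrays between -4.94 and -4.02. The retinoic acid hydroxylases both fell: Cyp26b1 by 3.50 (adjusted p = 0.00779) and Cyp26a1 by 2.11 (adjusted p = 4.12e-06). Cyp26b1 levels of mouse 4 were the lowest in each fraction, and once mouse 1 was left out its difference was -3.29 (adjusted p = 0.0584). Cyp26a1 was well above background on 1 EGFP+ array and its difference was 0.03 (adjusted p = 0.955) with normexp.

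Of 5 steroid-synthesis genes only Cyp17a1 was tested, at -0.33 (adjusted p = 0.181); with the mouse as a block this was past the threshold (adjusted p = 0.0396). Cyp11a1, Cyp11b2, Cyp19a1 and Cyp21a1 were well above background on no array. In all, 24 of the 71 members were not tested. Of these, 17 were well above background on none of the 12 arrays with any probe, among them Cyp7a1 and Cyp8b1 of bile acid synthesis, Cyp1a2, Cyp2b13 and 4 genes of subfamily 3A. Another 6, including Cyp2b9, Cyp2b10 and Cyp2c55, reached it on 1 array, and Cyp4f15 on 2. These probes give only a bound, and nothing is said of the genes' RNA beyond it.

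Comparison of EGFP+ with ALL, which shares the EGFP+ arrays with the first comparison, gave 8 members higher and 26 lower, beside 30.3% and 24.9% of all genes. Cyp2j6 was higher by 2.33 and Cyp2u1 by 1.98 here, and Cyp3a13 was at 0.54 (adjusted p = 0.108). Between ALL and EGFP-, 2 members were past the threshold, both higher in ALL, beside 1.39% of all genes higher and 0.00586% lower. They were Cyp2j6 at 0.71 (adjusted p = 0.0269) and Cyp2u1 at 0.59 (adjusted p = 0.0439). No array of EGFP- reached an ALL array for Cyp2j6 or Cyp2u1. Neither was past the threshold once mouse 1, 2 or 3 was left out (adjusted p from 0.0785 to 0.461), and without mouse 4 Cyp2j6 was (0.0482) and Cyp2u1 was not (0.121). With the mouse as a block Cyp2j6 passed (adjusted p = 0.00865) and Cyp2u1 did not (0.0732).

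The sexes were compared on the mean of the 3 fractions of each mouse, 2 males against 2 females. In this test, which 1.27% of all genes passed, 4 members were higher in males, beside 0.967% of all genes, and 1 was lower, beside 0.305%. Cyp4b1 was higher in males by 4.09 ± 0.19 (SE, 2 mice of each sex), adjusted p = 0.00841. Cyp2e1, counted among the 4, was higher by 4.47 with 1 male and 2 females. Mouse 2 dropped out of the Cyp2e1 test with its missing spots, so that 1 male stands against 2 females; the males give no spread of their own, and this male is assumed to vary as the females do. With those spots kept, which restores the second male, the difference was 4.16 (adjusted p = 0.0149). For each gene every male array that was measured was above every female array of its fraction, by over 2 log2 units at the least. Cyp2a4 was higher by 1.77 ± 0.17 (SE, 2 mice of each sex), adjusted p = 0.0329, and Cyp2a5 by 1.64 ± 0.12 (SE, 2 mice of each sex), adjusted p = 0.0195. Males again lay above females in all 3 fractions. Cyp2c23 was lower in males, by 1.44 ± 0.13 (SE, 2 mice of each sex), adjusted p = 0.0293, and its male arrays were under the female arrays of the same fraction throughout. With 2 mice of each sex, leaving out any mouse kept Cyp4b1 past the threshold and took out Cyp2a4 (adjusted p from 0.0748 to 0.169), Cyp2a5 (0.0783 to 0.115) and Cyp2c23 (0.085 to 0.144); Cyp2e1 was lost without mouse 1 (0.055), mouse 2 (0.0635) or mouse 3 (0.0601).

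Within fractions, where 2 male and 2 female arrays were compared with a spread pooled over 6 groups, 5 members were higher and 1 lower in males in EGFP+ (all genes 0.873% and 0.129%, 1% together), 8 and 2 in ALL (6.62% and 2.86%, 9.49% together), and 7 and 2 in EGFP- (5% and 2.46%, 7.46% together). The 6 groups share the same 4 mice, and the fit takes arrays of a mouse as independent. Same-mouse deviations of ALL and EGFP- correlated at 0.72 to 0.82, so these p-values may be too small. Cyp4b1, Cyp2e1, Cyp2a4 and Cyp2a5 were higher in each fraction. Cyp4b1 differed by 5.65 in EGFP+, 3.39 in ALL and 3.23 in EGFP-, and Cyp2e1 by 5.25, 4.24 and 3.87, with 1 male array in ALL and in EGFP-. Cyp7b1, Cyp2j9 and Cyp2j13 were higher in males in ALL and EGFP-, Cyp2j11 in ALL, and Cyp2j5 in EGFP+ at 1.74 (adjusted p = 0.0166). Cyp2c23 was lower in ALL and EGFP-, Cyp4a14 in ALL at -2.85 (adjusted p = 0.0431), Cyp2d22 in EGFP- at -1.12 (adjusted p = 0.0461) and Cyp2c29 in EGFP+ at -2.76 (adjusted p = 0.013), which was 0.21 (adjusted p = 0.874) with normexp. Of these 25 calls, those of Cyp2e1 and Cyp4b1 in EGFP+ were past the threshold in all 14 alternatives, and that of Cyp2j11 in 1 of 14. The Cyp2e1 calls in ALL and EGFP- rest on 1 male array each, and without mouse 4 they had no value. Counts of members past the threshold changed with the mouse that was left out, as did those over all genes. Each such fit leaves 1 array of a sex in a fraction, so its counts are not given. The proximal tubule markers of male EGFP+ fractions were less reduced than those of females (-4.25 and -4.76 against -5.26 and -5.34), and their part in sex differences in EGFP+ was not tested. Proximal straight segment markers differed between the sexes too. On mouse means, male minus female was 8.77 for Slc7a13, 2.76 for Acy3, 2.37 for Atp11a, 1.99 for Slco1a6 and 1.97 for Slc5a8. It was 0.39 for Aadat, 0.18 for Slc22a7 and -1.20 for Slc22a19. The part of this segment in the P450 sex differences was not tested. Whether males and females differed in how far EGFP+ lay from EGFP- was put to limma on 1 difference per mouse, 4 in all: 0% of genes and 0 members passed, 14 of 47 had an unadjusted p under 0.05 beside 2056 of 17071 genes, and the lowest adjusted p among members was 0.161, for Cyp4b1.

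The count of sex differences depended on the probe chosen to stand for a gene; these genes were singled out after their values had been seen. Cyp2j13 was represented by its brightest probe, the one that shares 28 of 30 bases with a Cyp2j11 probe. On it the sexes differed by 1.01 ± 0.13 (SE, 2 mice of each sex), adjusted p = 0.0611, with levels at 1.25, 1.36, 0.77 and 0.97 in EGFP+, at 1.51, 2.94, 1.49 and 3.04 in ALL and at 1.63, 2.89, 1.60 and 3.14 in EGFP-. The sexes overlapped in EGFP+ and were separate in ALL and EGFP-. On probe A_51_P312909, whose sequence is given above, the levels were at -7.54, -3.34, -7.11 and -4.22 in EGFP+, at -7.30, 1.25, -8.15 and 1.22 in ALL and at -7.02, 1.42, -6.49 and 1.0 in EGFP-. That probe was well above background on 6 of 6 male and 0 of 6 female arrays. Males were at least 2.75-fold higher in EGFP+, 148-fold in ALL and 105-fold in EGFP-.

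The remaining Cyp2j13 probe, A_52_P347956, gave a like order. Its levels were at -7.53, 1.18, -5.07 and 0.90 in EGFP+, at -4.57, 5.81, -4.88 and 6.10 in ALL and at -4.51, 5.80, -4.65 and 6.07 in EGFP-. It was well above background on all 6 male arrays and on the 4 female arrays of ALL and EGFP-, but on neither female array of EGFP+. Males were at least 77.6-fold higher in EGFP+, and the sexes differed by 10.68 in ALL and 10.51 in EGFP-. EGFP+ and EGFP- were not past the threshold on either of these probes (adjusted p = 0.389 and 0.445, with the female signals as read), and males and females of one fraction lay far apart; in both males EGFP+ was lower than EGFP- by over 4 log2 units. On the brightest probe the EGFP+ difference was -1.23 ± 0.45 (SE, n = 4), adjusted p = 0.0345; 6 of 14 alternatives ended the call, among them leaving out mouse 2 (-1.12, adjusted p = 0.109) and leaving out mouse 4 (-0.91, adjusted p = 0.134). Cyp2j11 itself showed a sex difference of 0.29 (adjusted p = 0.248). Whether Cyp2j11 RNA contributes to the Cyp2j13 reading was not tested.

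For Cyp4a12a, known as the male-specific arachidonic acid hydroxylase of the mouse kidney, the probes also disagreed. The brighter probe, A_51_P433360, showed 0.05 ± 0.42 (SE, 2 mice of each sex), adjusted p = 0.952 between the sexes. On A_52_P44914 the levels were at -5.07, -2.13, -4.06 and -3.38 in EGFP+, at -3.42, 2.45, -2.93 and 1.59 in ALL and at -3.48, 2.82, -3.21 and 1.65 in EGFP-. Males lay above females in every fraction on the second probe, by 4.19 ± 0.43 (SE, 2 mice of each sex), adjusted p = 0.0374, and by 5.58 in EGFP-. Over the 13 members tested through more than 1 probe, 3 of 16 further probes gave another sex call than the representative probe. Another call between EGFP+ and EGFP- came from 4 of 16. They were both further Cyp2j13 probes, the further Cyp4a12a probe and, for the fractions only, 1 of Cyp2d22. The fit takes signals below background as read. Between fractions it does not pair the arrays of a mouse, so a sex difference adds to the spread. Further probes that failed the filter are not counted. Among these, 1 each of Cyp2s1 and Cyp1b1 was well above background on no array, and 1 of Cyp2d10 on 1 array.

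**Figure D4:**
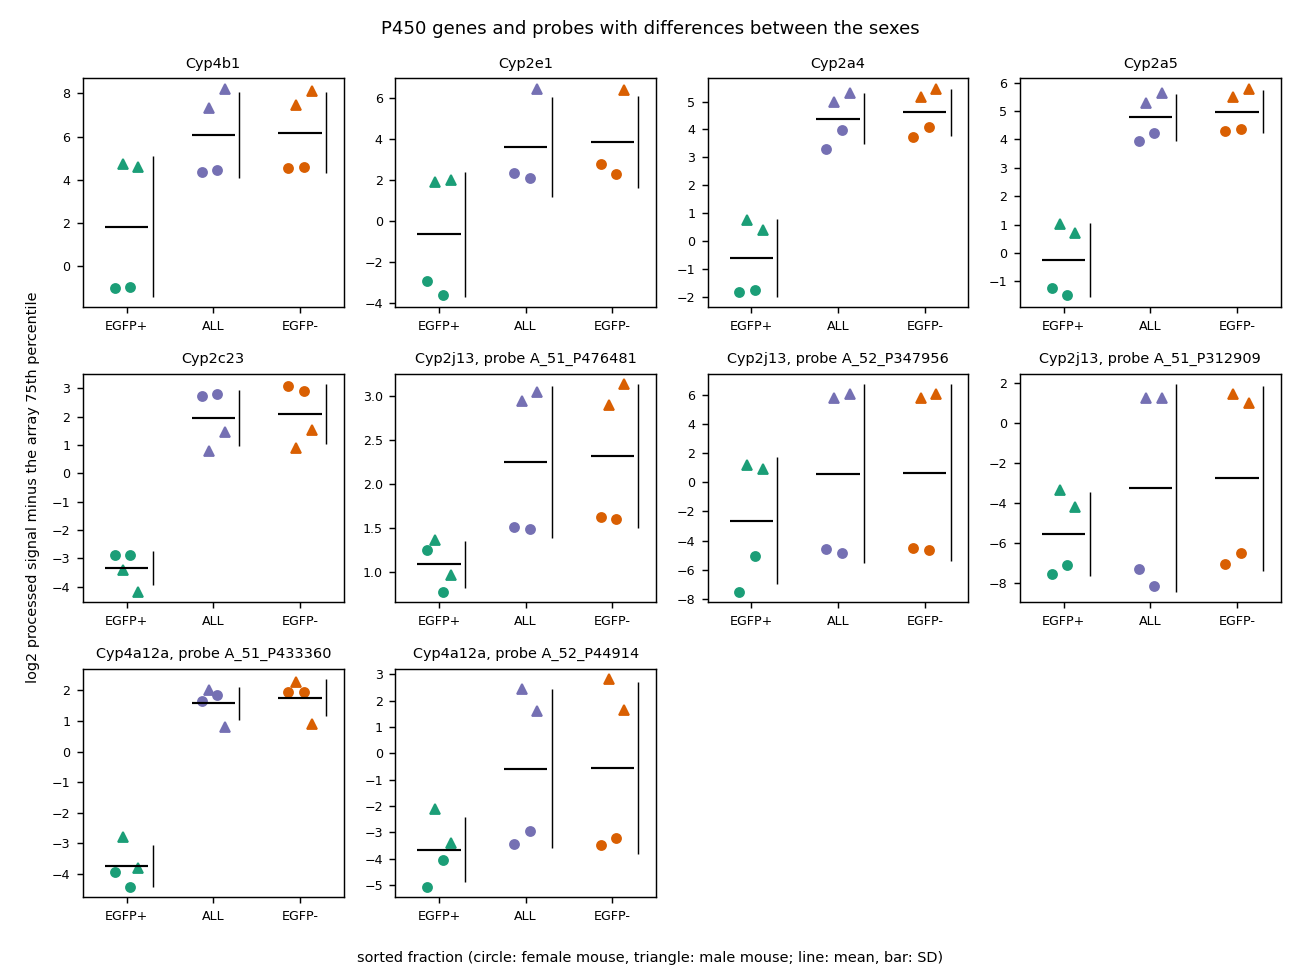
Level on each array of the 5 P450 genes past the threshold between the sexes, of the 3 Cyp2j13 probes and of both Cyp4a12a probes, with circles for female and triangles for male mice, the mean as a line and the SD as a bar; dropped spots of Cyp2e1 are not drawn. The Cyp2j13 probes A_52_P347956 and A_51_P312909 separate the sexes in all fractions, and A_51_P476481 does so in ALL and EGFP- only.

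The genes whose proteins serve P450 enzymes went both ways. Of 18 genes of electron transfer and haem supply, 4 rose, 8 fell and 6 were not past the threshold, with a median difference of -0.27 beside -2.11 for the members. Por, the reductase of microsomal P450 enzymes, was lower at -1.36 (adjusted p = 0.00187), and its helpers Cyb5a and Cyb5r3 were at -1.56 (adjusted p = 0.00666) and -1.68 (adjusted p = 7.46e-05). Fdxr, which feeds electrons to mitochondrial P450 enzymes, rose by 2.34 (adjusted p = 1.57e-08), while its partner Fdx1 was at -0.12 (adjusted p = 0.63). Alas1, the first enzyme of haem synthesis, was at 0.22 (adjusted p = 0.503).

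Of 20 regulators of P450 genes tested, 5 rose, 9 fell and 6 were not past the threshold. The nuclear receptor Hnf4a, which is also on the proximal tubule list, was at -5.35 (adjusted p = 3.95e-08), Nr1h4, the bile acid receptor, at -3.89 (adjusted p = 1.77e-06), and Ppara, which drives Cyp4a genes, at -2.30 (adjusted p = 4.39e-06). Nr1i2, the pregnane X receptor, reached a signal well above background on 4 of 4 EGFP- arrays and 0 of 4 EGFP+ arrays. Ahr rose by 0.98 (adjusted p = 0.00015) and Stat5a by 1.07 (adjusted p = 0.00202). Prlr, the prolactin receptor, was lower in males by 3.58 (adjusted p = 0.0409).

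Of 7 tested genes that act on arachidonic acid or its epoxides, 4 rose, 2 fell and 1 was not past the threshold. Ephx2, the soluble hydrolase that breaks epoxides down, fell by 3.12 (adjusted p = 0.000123), whereas Ephx1, its microsomal relative, rose by 1.06 (adjusted p = 0.00814). Ptgs1 and Ptges, of prostaglandin synthesis, rose by 2.59 (adjusted p = 8.47e-06) and 2.30 (adjusted p = 3.37e-06), and Pla2g4a, which releases arachidonic acid, by 1.36 (adjusted p = 0.00192). Cyp51 of cholesterol synthesis and Tbxas1, the thromboxane synthase, are P450 genes from a list of those whose names do not match the rule, and fell by 1.29 (adjusted p = 3.11e-05) and 0.68 (adjusted p = 0.00885).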

How the data were processed

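RNA of 12 sorted fractions was labelled with Cy3 and hybridised to one-colour Agilent arrays, per the labels' protocols. The deposited spot intensity is the processed signal of Feature Extraction 9.5.3.1, after its background correction, on build mm8, per the file headers. Each array holds 1 fraction of 1 mouse, per the labels. A value table for the whole series was not used. Control spots and outlier-marked spots were left out, spots of a probe were averaged and log2 levels were centred on each array's 75th percentile. A gene was represented by its brightest tested probe. Probes were named by accession, of members 91, or by symbol, 12. limma 3.58.1 in R 4.3.3 fitted the 3 fractions, the sexes on mouse means, the sexes within fractions and per-mouse differences, with Benjamini-Hochberg adjustment over all genes tested and a threshold of 0.05, and was tested on simulated data. The fractions of a mouse come from one animal, so the mouse numbers pair the arrays: deviations of same-mouse arrays correlated at 0.23 to 0.82 and those of different mice at -0.68 to 0.59. Members and gene lists were chosen with earlier results of these data known. Every tested member could be named; values by array are given for all that rose, the 10 largest falls well above background on 3 or more arrays of both fractions, the genes not above background on any EGFP+ array (5, of which Cyp4x1 gave no bound), the vitamin D members and those past the sex threshold, with others in ranges or where a result turned on them. Alternatives were quantile normalization, median centring, normexp (offset 50) on mean and background intensity, no dim-probe filter or 8 arrays, probe means, single probes, slide or mouse as a block, and leaving out each mouse. Keeping the outlier-marked spots was an alternative chosen after seeing the data. The number of arrays limits the precision.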

Additional observations from a re-analysis of the deposited data

Results flagged for a closer look

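Each tested member's 4 arrays of a fraction were screened for 1 array far from the other 3 by Dixon's criterion, which chance meets in about 1 group in 20. Of 137 groups screened, 3 met it. Cyp39a1 in ALL was lowest in mouse 4, at -0.80, with the next array at -0.25. Cyp3a13 in ALL was also lowest in mouse 4, at -4.38, with the next at -3.92. Cyp4a10 in EGFP+ was highest in mouse 2, at -1.26, with the next at -2.18.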

How the results depend on the processing

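Of the 35 member calls between EGFP+ and EGFP-, 27 held in every setting run, of 34 between EGFP+ and ALL 24, and of 5 between the sexes 1, Cyp4b1. Counts of members higher and lower in EGFP+ stayed within 1.5 times of the reported ones in every setting, and leaving out single mice gave 7 to 9 higher and 24 to 26 lower against EGFP-, and 7 to 9 and 22 to 25 against ALL. Reversed signs were few and, with normexp, mostly of dim genes: 0.21 for Cyp17a1, 0.35 for Cyp1a1, 0.0271 for Cyp26a1, 0.10 for Cyp27b1, 0.43 for Cyp4f18 and 0.88 for Cyp4x1 between EGFP+ and EGFP-, and 0.21 for Cyp2c29 between the sexes in EGFP+. With median centring Cyp2j11 was at 0.0697, and with slide as a block Cyp20a1 was at -0.0225 and Cyp2b19 at -0.0361. For ALL against EGFP- the 2 higher members (all genes 237) became 1 with quantile normalization (245), median centring (276) or single probes (224). They became 0 with normexp (164) or no filter (178), and 0 to 1 without single mice. Between the sexes 4 members were higher and 1 lower, beside 165 and 52 of all genes. Quantile normalization gave 2 and 2 (all genes 170 and 54) and median centring 9 and 3 (546 and 198). Normexp gave 11 and 3 (2463 and 336) and no filter 1 and 0 (29 and 4). With median centring, normexp and no filter the counts over all genes thus moved the same way. Lower were 2 with the filter at 8 arrays (all genes 50) or outlier-marked spots kept (59). Counts also changed without single mice, which leaves 1 mouse of a sex. Within EGFP+ normexp gave 2 higher and 0 lower (all genes 6 and 1, from 149 and 22). Within ALL normexp gave 3 and 0 (all genes 129 and 42, from 1131 and 489). Quantile normalization and no filter gave 1 lower each (all genes 418 and 169) and probe means 4 lower (452). Within EGFP- normexp gave 3 and 0 (all genes 162 and 62, from 853 and 420). No filter and single probes gave 1 lower each there (all genes 185 and 378). Counts within fractions changed without single mice too, where each fit leaves 1 array of a sex in a fraction. The cause of these changes was not tested. With the mouse as replicate block, 9 members were higher and 28 lower against EGFP-, Cyp2e1 and Cyp17a1 being the added calls, 8 and 29 against ALL, and 1 higher in ALL than EGFP-, Cyp2u1 being lost (adjusted p = 0.0732); within fractions 1 more gene was lower in EGFP- and Cyp2j11 in ALL was not past the threshold (adjusted p = 0.0547). No call named in the text changed otherwise under the block. Probes near background limit the dim genes.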

Other observations

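Further P450 genes are on the array under names that the member rule does not read. Cyp2d12 (9030605E09Rik in the files) and Cyp4a31 (BC013476) were lower in EGFP+ than in EGFP- tubules, by 4.94 (adjusted p = 1.14e-08) and 5.26 (adjusted p = 2.05e-08) in limma. Cyp2d34 (BC018285) was well above background on none of the EGFP+ arrays and on all 8 others. On the processed signal it was at least 13.7-fold lower in EGFP+ than in EGFP- (adjusted p = 4.03e-07 in limma on the signals as read). All of these are in subfamilies whose tested members fell. Cyp4f39 had a difference of -0.16 (adjusted p = 0.737) and the pseudogene Cyp4f41-ps one of 0.31 (adjusted p = 0.0444). None of these differed between the sexes past the threshold, with adjusted p from 0.241 to 0.841.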
